A study of Mus musculus with 6 samples.

Results

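In growing mouse myoblasts, 9382 narrow genomic regions were listed for Sin3A with no Foxk1 region on them. The cells were C2C12, an established line labelled with the strain C3H. They were selected by width and by overlap, as distinct regions of the Sin3A list that were under 1000 bases wide and shared no base with any region of the Foxk1 list, leaving out chromosomes 15 and M. They made up 61.8% of the 15185 distinct Sin3A regions on the 19 chromosomes used (95% interval 61.0 to 62.6%), out of 16773 on all chromosomes. Chromatin immunoprecipitation sequencing (ChIP-seq) gave 1 list for Sin3A and 1 list for Foxk1, which held 7931 regions on the same chromosomes. Both proteins were mapped in non-starved cells with 1 library each, by an antibody against Sin3A credited to an earlier publication and a Santa Cruz antibody against Foxk1. The series also holds a ChIP input and 3 polyadenylated RNA libraries, of which only the non-starved library given the siRNA siNS was read here. The lists give boundaries on build mm9 and no score, so how strongly any region was enriched is unknown, and no region can be ranked by signal.

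Sin3A is a scaffold protein with paired amphipathic helix domains that binds no DNA by itself. It carries the histone deacetylases HDAC1 and HDAC2 to chromatin, where sequence-specific factors such as the Mad family partners of Max, REST and the forkhead factors Foxk1 and Foxk2 recruit it. The complex is best known for repressing transcription, is often found at promoters of active genes, and has been studied in muscle cell differentiation. Narrow Sin3A regions away from Foxk1 are therefore a place to ask how Sin3A lies on chromatin where this partner was not listed. The stated purpose of the series was to examine where both proteins bind and how expression differs with starvation or with less Foxk1.

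With 1 library per protein there is no spread between replicates, and no difference between classes of regions was tested. Each interval printed with a share or median is an exact 95% binomial interval (Clopper-Pearson for shares, order statistics for medians). It covers counting error only, as if regions were independent, and says nothing of another culture or antibody. The members are set beside 2 other classes: 3220 wide Sin3A regions (1000 bases or more) without Foxk1, and 2583 Sin3A regions of any width that share bases with Foxk1.

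Width and overlap chose the members, so their widths are given as a description. The median width was 562 bases (557 to 566), the quartiles were 458 and 698 bases, and the range was 44 to 999 bases. Fragments in the ChIP libraries had been size-selected at around 350 bp with adapters. The members held 40.1% of all bases in Sin3A regions, against 61.8% of the regions. The most filled width classes were 500 to under 600 bases with 2149 members and 400 to under 500 bases with 2085 members. Members under 300 bases numbered 204, and 19 were under 200 bases. Near the limit of 1000 bases, 50 members were 990 to 999 bases wide, and 50 regions without Foxk1 were 1000 to 1010 bases wide, a span 1 base longer.

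The regions next to each limit are named to show where it fell. Just inside the width limit lay 4 members of 999 bases, chr7:53085517-53086515, chr11:58790404-58791402, chr11:95275584-95276582 and chr17:25945640-25946638, and then chr2:97306362-97307359 with 998 bases. Just outside it lay 4 regions of 1000 bases, chr2:109757508-109758507, chr7:74517398-74518397, chr11:116028953-116029952 and chr16:87454939-87455938, and chr11:75992552-75993552 with 1001 bases. The narrowest member, chr5:115372455-115372498, was 44 bases wide and stood 88.3 kb from Foxk1 and 19.5 kb from other Sin3A. The next narrowest were chr9:3022439-3022507 with 69 bases, chr17:56018285-56018389 with 105, chr11:68787031-68787142 with 112 and chr9:59599136-59599250 with 115. Their surroundings had little in common: the 69-base member lay 60 bases from a Foxk1 region, the 105-base member 79.5 kb from one, and the 115-base member 113 bases from another Sin3A region.

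At the overlap limit, the members closest to Foxk1 were separated from it by a few bases. The member chr2:18795139-18795550 lay 5 bases from the Foxk1 region chr2:18794543-18795133. The gaps were 9 bases for chr19:41904670-41905163, 11 bases for chr19:47388927-47389646, 13 bases for chr17:27022843-27023521 and 17 bases for chr5:136198399-136198700. On the other side of the limit, the narrow regions chr11:44757754-44758243 and chr13:55546718-55547522 each shared 2 bases with Foxk1, chr6:51122371-51122699 shared 10, chr5:103059085-103059669 shared 22 and chr9:69245435-69246154 shared 23. Few regions stood this near the limit. Within 100 bases of a Foxk1 region lay 18 members, and 18 narrow Sin3A regions shared 100 bases or fewer with one.

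Overlap with Foxk1 went with width well below the limit of 1000 bases. Of narrow Sin3A regions 89.9% (89.4 to 90.5%) had no Foxk1, against 67.7% (66.4 to 69.1%) of wide ones. A wide region has more bases on which an overlap can occur, so the position of the centre was read as well, which does not grow with width. The centre lay inside a Foxk1 region in 7.62% of the 223 Sin3A regions under 300 bases (4.50 to 11.9%). It did so in 4.51% of those of 300 to under 400 bases (3.36 to 5.92%). In those of 500 to under 600 bases it did so in 4.71% (3.87 to 5.66%). It did so in 12.97% of those of 700 to under 800 bases (11.1 to 14.998%), 20.99% of those of 900 to under 1000 bases (18.2 to 24.0%) and 22.9% of those of 1000 to under 1200 bases (20.6 to 25.2%). It was 21.4% from 1500 to under 2000 bases and 7.04% of the 142 regions of 3000 bases or more (3.43 to 12.6%). These values hold both measures that chose the members and describe the Sin3A list as a whole.

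**Figure D1:**
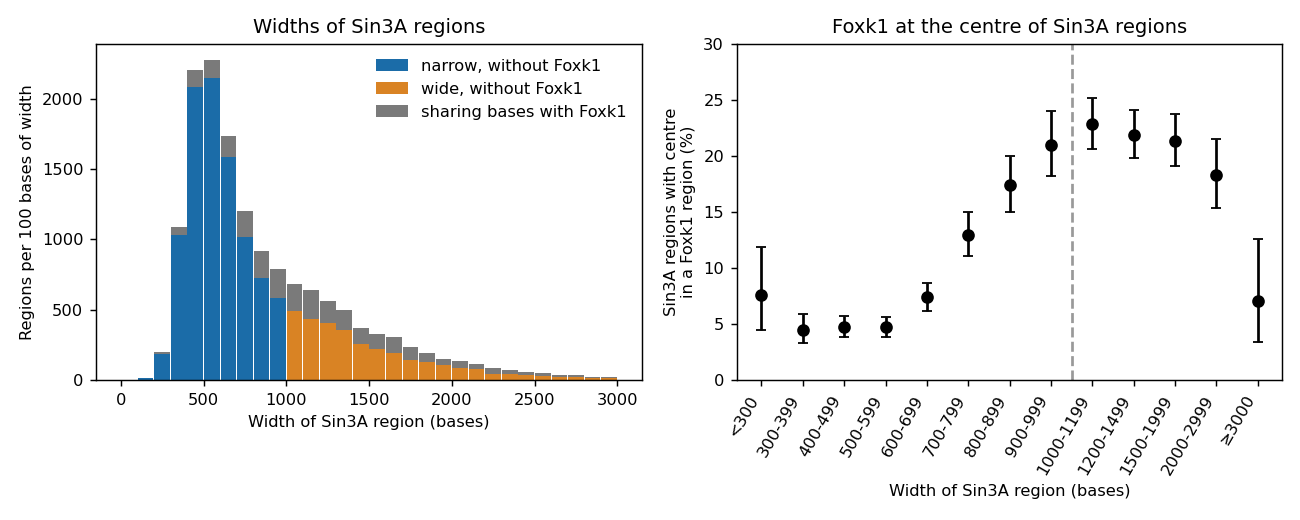
Left, number of Sin3A regions in each 100 bases of width (x axis, bases; 142 regions of 3000 bases or more are not drawn), coloured by class. Right, percent of Sin3A regions in each width class (x axis, bases) whose centre lies in a Foxk1 region, with 95% Clopper-Pearson intervals; the dashed line is the limit of 1000 bases, and the share is below 5% from 300 to under 600 bases and above 20% from 900 to under 2000 bases.

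By the median gap, members lay farther from Foxk1 than wide regions without Foxk1 did. Gaps from positions placed at random were not computed, so whether members avoid Foxk1 was not tested. The gap from a member to the closest Foxk1 region, edge to edge, had a median of 71.4 kb (68.9 to 74.4 kb), with quartiles of 22.9 and 191.7 kb. For wide regions without Foxk1 the median was 47.5 kb (44.8 to 50.4 kb), with quartiles of 17.8 and 115.8 kb. At short range 3.37% of members (3.01 to 3.75%) and 3.29% of wide regions (2.70 to 3.97%) had Foxk1 within 1 kb. Within 10 kb these shares were 14.5% (13.7 to 15.2%) and 16.2% (14.98 to 17.6%), and within 100 kb 58.8% (57.8 to 59.8%) and 70.7% (69.1 to 72.3%). The shares of the classes lay farther apart at 100 kb than at 10 kb, and 4.33% of members had no Foxk1 region within 1 Mb.

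Close to the members, Foxk1 regions were more frequent than farther out. At 1 kb below the centre of a member, 104 of 9382 members (1.11%) had a Foxk1 region, the highest share of any position read. At 1 kb above the centre it was 100 members (1.07%). From 2 to 5 kb away on both sides the mean share was 0.472%, and from 15 to 20 kb it was 0.392%, against 0.195% of all positions up to the last region of each chromosome. For wide regions without Foxk1 the mean was 0.589% from 2 to 5 kb and 0.579% from 15 to 20 kb. From 1 to 2 kb it was 0.661% for these wide regions and 0.834% for members. The centre itself is 0 in both classes by the choice of the regions. Wide regions are free of Foxk1 farther from their centre by that choice, so equal distances are not alike in the 2 classes. The peaks at 1 kb from the centre come from few members, the 104 and 100 given above. Measured edge to edge instead, 316 members had Foxk1 within 1 kb. Of those 316 members, 169 stood beside a Foxk1 region that shared bases with another Sin3A region (53.5%, 47.8 to 59.1%). Counted over Foxk1 regions and not over members, 33.1% of all Foxk1 regions shared bases with a Sin3A region. These shares count different units and were not compared.

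**Figure D2:**
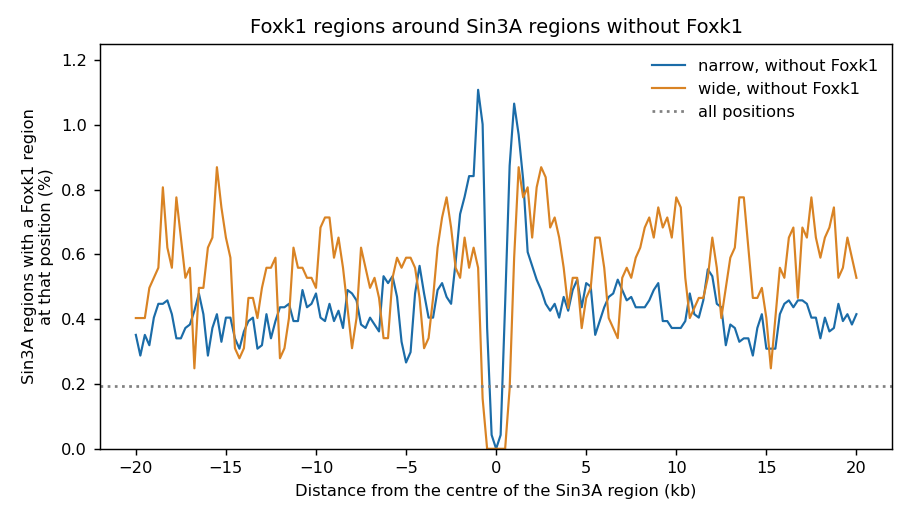
Percent of regions (y axis) that have a Foxk1 region at a given distance from their centre (x axis, kb, read every 250 bases up to 20 kb), for narrow and wide Sin3A regions without Foxk1. The dotted line is the share of all positions in Foxk1 regions, 0.195%, and the curve of the narrow regions is highest 1 kb from the centre, at 1.11%.

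Members also stood farther from other Sin3A regions. The gap to the closest other Sin3A region had a median of 31.9 kb for members (30.7 to 33.4 kb), 22.1 kb for wide regions without Foxk1 (20.97 to 23.9 kb) and 22.4 kb for regions sharing bases with Foxk1 (21.1 to 24.0 kb). Within 100 kb, 78.0% of members (77.1 to 78.8%) had another Sin3A region, as did 88.5% of the wide regions (87.4 to 89.6%) and 88.9% of the shared ones (87.6 to 90.04%). Members with neither Sin3A nor Foxk1 within 100 kb numbered 1520, or 16.2% (15.5 to 17.0%), and among wide regions without Foxk1 228, or 7.08% (6.22 to 8.02%). A Foxk1 region was closer than any other Sin3A region for 25.6% of members (24.8 to 26.5%) and 27.1% of wide regions without Foxk1 (25.6 to 28.7%), with 7931 regions in the Foxk1 list and 15185 in the Sin3A list.

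**Figure D3:**
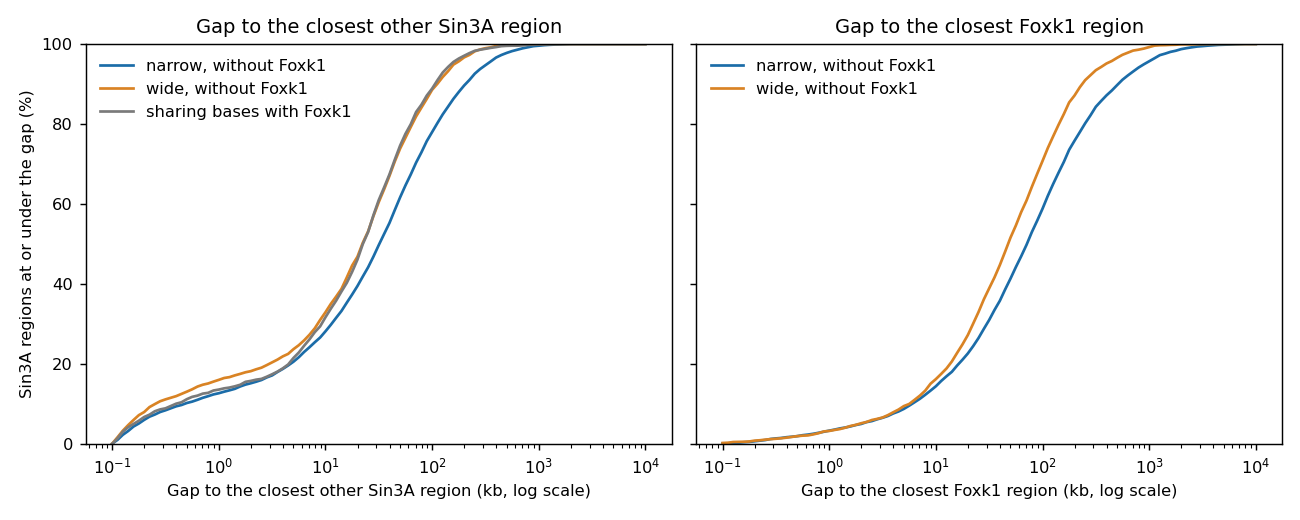
Percent of Sin3A regions (y axis) whose gap to the closest other Sin3A region (left) or the closest Foxk1 region (right) is at or under the value on the x axis (kb, log scale). The curve of narrow regions without Foxk1 runs below the others beyond 10 kb in both panels, with medians of 31.9 kb and 71.4 kb.

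Other members stood right beside another Sin3A region. No pair of Sin3A regions on these chromosomes was less than 100 bases apart, which was the smallest gap in the list. From there, 568 members had a gap of 100 to under 200 bases, 392 of 200 to under 500 bases and 231 of 500 to under 1000 bases. In all, 1193 members (12.7%, 12.0 to 13.4%) were within 1 kb of another Sin3A region, gaps of exactly 1000 bases included, against 16.1% (14.8 to 17.4%) of wide regions without Foxk1. Of those 1193 members, 667 had a member as the closest region, 326 a wide region without Foxk1, and 200 a region that shares bases with Foxk1, of which 80 were narrow and 120 wide. If regions within 1 kb are taken as 1 stretch, 1167 of the 1193 members belong to stretches that span 1000 bases or more. The widths and gaps themselves largely fix this count. A stretch adds the widths of its regions to gaps of at least 100 bases, and the median member is 562 bases wide. For 391 of the 1193 members the stretch holds a wide region without Foxk1, which alone reaches 1000 bases. Whether close members are parts of wider Sin3A regions was not tested.

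The gaps were longest at middle widths. Members of 500 to under 600 bases had the longest median gaps, 42.1 kb to other Sin3A and 87.0 kb to Foxk1. Members under 300 bases had medians of 13.1 and 44.3 kb, and members of 900 to under 1000 bases 21.4 and 55.8 kb. The share within 1 kb of another Sin3A region was 21.6% under 300 bases, 10.1% from 500 to under 600 bases and 17.3% from 900 to under 1000 bases. By the gap to Foxk1, the median width was 524 bases for the 316 members within 1 kb, 560.5 from there to 10 kb, 563 to 100 kb, 564.5 to 1 Mb and 554 for the 406 members farther away. The share with Foxk1 within 1 kb was 6.37% of members under 300 bases, 2.16% from 700 to under 800 bases and 4.10% from 900 to under 1000 bases. The 40 members more than 1 Mb from other Sin3A had a median of 531 bases and none was over 777 bases.

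The closest Sin3A region was another member for 64.0% of members (63.0 to 64.9%), for 56.7% of wide regions without Foxk1 (55.0 to 58.4%), for 55.5% of narrow regions with Foxk1 and for 57.0% of wide regions with Foxk1. Members are 61.8% of the list, so the last 3 values lie below that share and the first above it. That share differs by place, from 54.9% on chromosome 7 to 83.5% on chromosome X. Whether members lie beside each other more than the share around them gives was not tested. Read along the chromosomes, members formed 3306 uninterrupted series with a median of 2, and 109 series held 10 or more, with 1474 members between them. The longest series were chosen after their values were seen. One held 37 members in 2.59 Mb on chromosome 8 (chr8:98429461-101019520) with 6 Foxk1 regions between them, and another held 26 members spread over 19.8 Mb of chromosome X (chrX:45976382-65744628), also with 6 Foxk1 regions.

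Most members were in no run. A run is a set of Sin3A regions each within 10 kb of the next. By this measure 6738 members stood alone (71.8%, 70.9 to 72.7%), 2644 were in runs and 855 in runs of 3 or more. The share in runs was thus 28.2% (27.3 to 29.1%), beside 33.0% (31.3 to 34.6%) of wide regions without Foxk1 and 31.7% (29.9 to 33.5%) of regions sharing bases with Foxk1. When Sin3A regions within 1 kb were first joined, 8201 regions passed the rule, which is a different set of members. Of that set 17.7% had another Sin3A region within 10 kb, 1.59 times below the 28.2%. Of the 2644, 1245 were in runs of members only. Runs with a wide region without Foxk1 held 883, and runs with a region that shares bases with Foxk1 held 650. A run can hold both of these kinds of region, so the last counts overlap.

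The run with most members was chr11:3054536-3103468, with 10 members among 12 regions in 48.9 kb. Its regions were thin, from 200 to 798 bases, and covered 8.68% of the run. The members lay at chr11:3054536-3054919, 3063560-3063804, 3070323-3070608, 3073970-3074353, 3076911-3077148, 3081060-3081306, 3085807-3086006, 3092545-3092748, 3098722-3098976 and 3102806-3103468. All but the last were under 400 bases, and the gaps inside the run were from 104 to 8640 bases. The other regions of the run shared bases with Foxk1, and 3 Foxk1 regions lay in it. The ChIP input was not analysed here, so its part in this run was not tested.

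A tighter kind of run was seen on chromosome 2. The run chr2:44963025-44968790 held 5 members and a wide region in 5.77 kb, 70.9% of it inside the regions and none of it in Foxk1. From the left, the members were 524, 532, 352, 748 and 608 bases wide, with gaps of 300, 305, 359 and 148 bases between them, and 567 bases on lay the wide region of 1323 bases. On chromosome 11, chr11:77302172-77326851 held 6 members of 333 to 980 bases around a wide region of 1199 bases. That wide region had members 164 bases before and 116 bases after it. The run also held 1 Foxk1 region, which shared no base with its Sin3A regions. On chromosome 10, chr10:96078968-96093995 began with a region of 2023 bases that shares bases with Foxk1, followed by 5 members of 429 to 833 bases. The run chr11:68872218-68924602 held 5 members among 8 regions, 1 of them 4178 bases wide, with 3 Foxk1 regions.

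Some members stood more than 1 Mb from any other Sin3A region. The member farthest from other Sin3A, chr7:59117578-59118038 of 461 bases, stood 2.08 Mb from the closest Sin3A region but 43.2 kb from a Foxk1 region. On chromosome X, chrX:114852368-114852992 and chrX:116786908-116787561 were 1.93 Mb apart and each other's closest Sin3A region. The members chr16:68477695-68478467 and chr8:104755449-104756052 stood 1.84 and 1.79 Mb from other Sin3A and 2.66 and 2.14 Mb from Foxk1. The 5 members farthest from Foxk1 all lay between bases 82219689 and 83505929 of chromosome X, 7.04 to 7.72 Mb from the closest Foxk1 region, the widest of them 758 bases.

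Chromosome X stood apart from every autosome used in its makeup. Of its 345 Sin3A regions 288 were members, 83.5% (79.1 to 87.2%), against 61.3% (60.5 to 62.1%) on the autosomes, where the share ran from 54.9% on chromosome 7 to 68.4% on chromosome 10. Regions of every kind were sparser on X: members stood at 1.73 per Mb there and 3.84 per Mb on the autosomes, all other Sin3A regions at 0.342 and 2.43 per Mb, and Foxk1 regions at 0.571 and 3.31 per Mb. Each density is over the length up to the last region of the chromosome in either list. The X density was thus 0.450 of the autosomal one for members, 0.141 for other Sin3A regions and 0.172 for Foxk1 regions. On X 89.0% of Sin3A regions were narrow (85.2 to 92.1%), and on the autosomes 68.2%. The share with Foxk1 was 8.41% (5.70 to 11.8%) and 17.2%.

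The members on X had a median width of 554.5 bases (532 to 584), and those on the autosomes 562 bases (558 to 567). Their median gaps were longer, 394.7 kb to Foxk1 (324.3 to 483.6 kb) and 75.2 kb to other Sin3A (61.5 to 98.7 kb), beside 68.9 and 31.1 kb. Foxk1 lay within 10 kb of 10 of the 288 members on X, or 3.47% (1.68 to 6.29%), and of 14.8% on the autosomes. Of the 95 Foxk1 regions on X, 30.5% shared bases with Sin3A (21.5 to 40.8%), and 33.1% of those on the autosomes. The longest stretch with no member, 10.2 Mb from 23269863 to 33499751, was also on X and held 1 other Sin3A region and no Foxk1 region. On chromosome 7 a stretch of 8.12 Mb from 63306091 to 71421313 held no member, 3 other Sin3A regions and 5 Foxk1 regions.

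Among the autosomes members were densest on chromosome 11, at 6.62 per Mb, and sparsest on chromosome 7, at 2.49 per Mb. Chromosome 11 was also densest in other Sin3A regions (4.81 per Mb) and Foxk1 regions (6.25 per Mb). Its members had the shortest median gaps, 15.97 kb to other Sin3A and 41.1 kb to Foxk1, and the highest share with Foxk1 within 10 kb, 20.97%. Chromosomes 10 and 8 followed with 5.39 and 5.30 members per Mb, and chromosome 19 with 5.25. These had different makeups, since members were 68.4% of Sin3A regions on chromosome 10 (65.5 to 71.3%) and 56.7% on chromosome 19 (52.5 to 60.8%). On chromosome 7 members were wider, with a median of 606.5 bases, while the other autosomes lay between 551.5 and 574 bases.

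**Figure D4:**
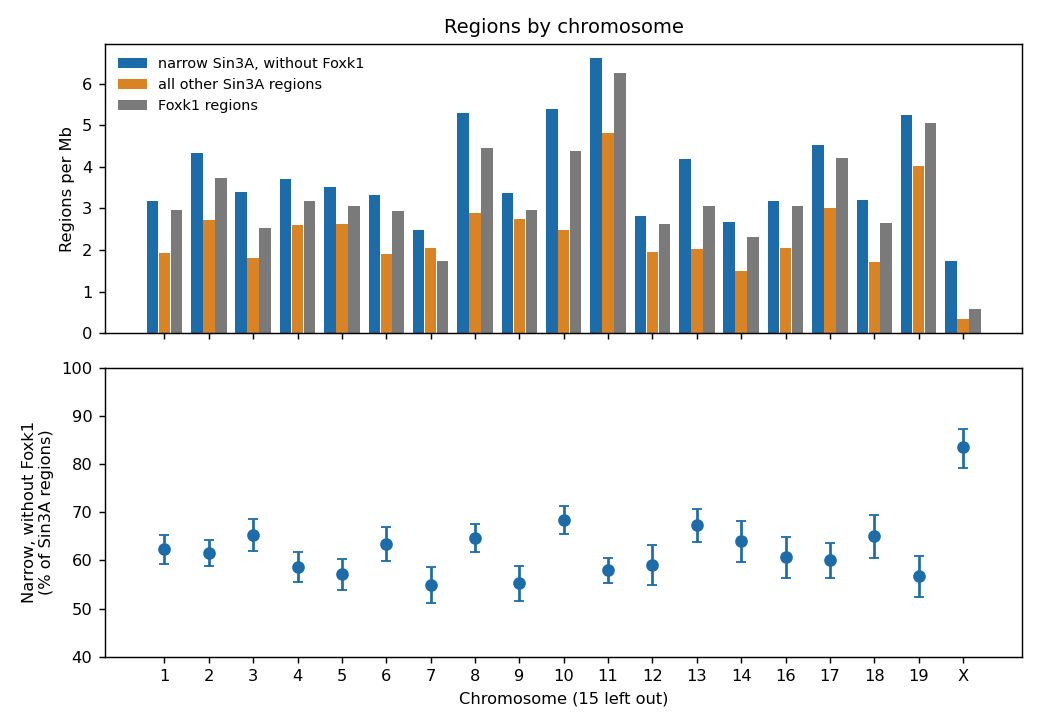
Top, regions per Mb on each chromosome (x axis) for narrow Sin3A regions without Foxk1, all other Sin3A regions and Foxk1 regions. Bottom, narrow regions without Foxk1 as percent of the Sin3A regions of the chromosome with 95% Clopper-Pearson intervals, on an axis that starts at 40%; X is at 83.5% and the autosomes lie between 54.9 and 68.4%.

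Windows rich in members were also rich in other Sin3A regions and in Foxk1 regions. Over the 245 whole windows of 10 Mb, which held a median of 35 members, the Spearman correlation of members was 0.80 with other Sin3A regions and 0.86 with Foxk1 regions (Pearson 0.74 and 0.87). Without X it was 0.77 and 0.84. All windows come from the same libraries and their depth, so this is a description. Stretches that could hold no region were not taken out of the windows. Of 2541 windows of 1 Mb, 382 (15.03%) held no member and the median was 3. The fullest were chromosome 11 from 3 to 4 Mb with 22 members, where the run of 10 lies, chromosome 8 from 84 to 85 Mb with 20, and chromosome 8 from 88 to 89 Mb, chromosome 11 from 69 to 70 Mb and chromosome 11 from 115 to 116 Mb with 19 each.

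A pair of neighbouring windows of chromosome 8 held more members than any other window of 10 Mb. From 80 to 90 Mb there were 147 members and from 90 to 100 Mb 115, while the other 11 whole windows of the chromosome held 24 to 65. The stretch from 80 to 100 Mb was chosen after its values were seen. Members stood there at 13.1 per Mb and on the rest of the chromosome at 3.90 per Mb, 3.36 times as dense. Foxk1 regions stood at 11.75 and 3.15 per Mb (3.73 times) and other Sin3A regions at 4.60 and 2.59 per Mb (1.78 times). Members were 74.0% of the Sin3A regions in the stretch (69.1 to 78.5%) and 60.1% on the rest (56.4 to 63.7%). Their median width was 510.5 bases in the stretch and 576 on the rest. Of the 21 Sin3A regions from 84 to 85 Mb, 20 were members. The ChIP input, which would give the reads without antibody in this stretch, was not analysed here, so its part in these counts was not tested.

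**Figure D5:**
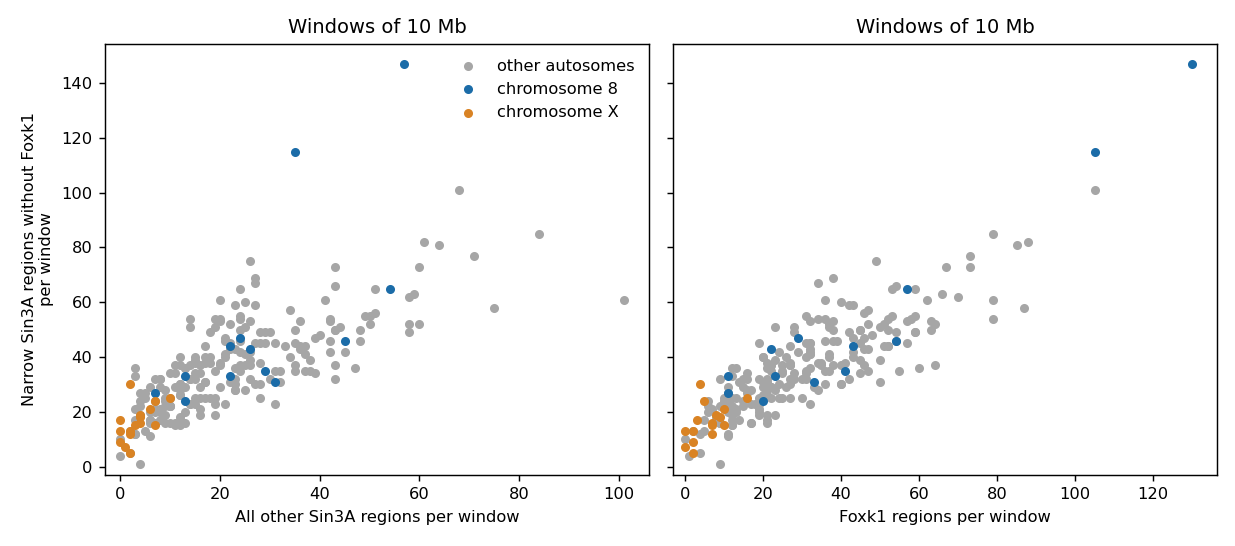
Each point is a whole window of 10 Mb, with its narrow Sin3A regions without Foxk1 (y axis, number) against all other Sin3A regions (left) or Foxk1 regions (right) in the window (x axes, number). The points of chromosome 8 at 147 and 115 lie above all others, and those of chromosome X lie at the lower left.

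RNA of every listed Sin3 complex gene was measured in these cells. In the non-starved siNS library all 19 listed Sin3 complex genes were at 1 FPKM (fragments per kilobase of transcript, scaled to the mapped total) or more, as were 11101 of all 22989 rows (48.3%). The median of the 19 genes was 28.3 FPKM, beside 14.1 FPKM for all rows at 1 FPKM or more. Values are from the authors' table with the 95% limits it gives. Sin3a, the scaffold, was at 18.997 FPKM (16.2 to 21.8) and its paralog Sin3b at 84.3 FPKM (67.2 to 103.0). The deacetylase genes Hdac1 and Hdac2 were at 95.1 and 82.5 FPKM, and Rbbp4 and Rbbp7, whose products bind histones, at 102.1 and 144.6 FPKM. Sap18, a subunit gene, was highest at 187.4 FPKM, while Sap30 was at 14.9, Sap30l at 28.3, Sap130 at 34.1, Suds3 at 31.4, Brms1 at 30.9, Brms1l at 13.4 and Fam60a at 22.6 FPKM. Lowest were Ing2, which encodes a reader of methylated histone H3, at 4.85 FPKM, Arid4a at 5.08 FPKM and Arid4b at 8.28 FPKM, with Ing1 at 20.2 FPKM and Ogt, the O-GlcNAc transferase gene, at 15.7 FPKM.

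Of 16 listed genes of factors known to recruit Sin3 or of their partners in the Max network, Foxk1 included, 15 were at 1 FPKM or more. Foxk1 itself was at 9.09 FPKM (7.76 to 10.4), and its paralog Foxk2 was higher at 33.7 FPKM (28.5 to 38.9). In the Max network, Max was at 26.6, Mlx at 22.7, Mxd3 at 41.9, Mxd4 at 31.2, Mnt at 11.3, Mxi1 at 7.71, Mga at 4.68 and Mxd1 at 1.67 FPKM. The interval of Mxd3 was wide, from 21.9 to 62.2 FPKM. Rest, which encodes a repressor of neuronal genes, was at 13.8 FPKM, E2f4 at 33.2, Klf10 at 20.8, Klf13 at 17.4 and Klf11 at 6.35 FPKM, and Tet1 was at 0.616 FPKM. These levels say nothing about which factor, if any, lies on a member.

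The library carried RNA of the genes listed here as myoblast markers. All 8 were at 1 FPKM or more, beside 48.3% of all rows. The desmin gene Des was at 485.2 FPKM, Chrna1 at 136.6, Cdh15 at 73.5 and the determination factor gene Myod1 at 70.1 FPKM. Vcam1 was at 33.8, Myf5 at 16.8, Myog at 14.2 and Pax7 at 7.92 FPKM. Whether some of the cells had begun to differentiate was not tested. Of 16 markers of adipocytes, neurons, endothelial cells and leukocytes, 2 reached 1 FPKM, namely the tubulin gene Tubb3 at 89.7 FPKM and Cd68 at 2.50 FPKM.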

How the data were processed

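ChIP-seq regions of Sin3A and Foxk1 and 1 RNA library of C2C12 myoblasts were read, and groups were taken from the sample titles. Per the submitters' processing notes, ChIP-seq processing named bedtools, SAMtools 0.1.19 and BWA 0.7.5a, without roles, and the build mm9. Not given in the sources used here are the region caller, its thresholds and what was merged. Each deposited list holds region boundaries and no score or other quantity. RNA values are FPKM with 95% limits, per the file headers, and the notes name Cuffdiff, Cufflinks 2.1.1, Bowtie2 2.1.0 and TopHat2 2.0.9. The read depth of every library is unknown.

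Boundaries were read as in a BED file and are printed from base 1. From 16779 Sin3A rows, 6 repeated rows at 3 places were removed. Overlap meant 1 shared base or more, and gaps were measured edge to edge. Regions were assigned to windows by their centre. Regions were named by rank in width, in gap, in bases shared with Foxk1, in members per run and in members per 1 Mb window, and genes by 3 lists. The members and lists were chosen with earlier results of these data known. Distances to genes, base composition and sequences were not analysed here, since no genome or annotation of mm9 was used. The other RNA libraries and the input were not analysed here. Other limits on width, overlap and distance were tried, with their effect given at the end. Overlap and gap functions were tested on simulated data against direct counting. Scripts ran in Python 3.11.15 with scipy 1.17.1, pandas 2.3.3, numpy 2.4.6 and matplotlib 3.10.9.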

Additional observations from a re-analysis of the deposited data

How the results depend on the processing

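Of 85 values recomputed for 7 results under 11 planned and 3 added settings, 52 stayed within the 95% interval of the reported value (for the number of members, within 1.5 times) and 33 did not. Counting both boundaries as part of a region, or keeping repeated rows, moved none of the 7. With a width under 500 bases there were 3323 members, 21.9% of Sin3A regions, with a median width of 425 bases, median gaps of 66.2 kb to Foxk1 and 30.1 kb to other Sin3A, and 15.7% within 10 kb of Foxk1. Under 750 bases the share was 50.2%, the median width 521 bases, the gaps 74.7 and 34.1 kb, and 27.1% lay within 10 kb of other Sin3A. Under 1500 bases the share was 74.6%, the width 609 bases and the gaps 66.2 and 30.1 kb. Leaving out regions with Foxk1 within 500 bases gave a share of 60.6% and 12.7% near Foxk1. Allowing Foxk1 on less than 50% of a region gave a share of 63.2%, a gap to Foxk1 of 68.4 kb and 16.4% near Foxk1. With all chromosomes the share was 63.1% and the gaps 66.1 and 29.8 kb. From centre to centre 27.1% lay within 10 kb of other Sin3A. Within 5 kb, 8.79% had Foxk1 and 20.6% other Sin3A, and within 50 kb 41.3% and 61.5%. Apart from what each altered limit fixes, the cause of these shifts was not tested. The added settings were chosen after seeing the data. Joining Sin3A regions within 1 kb before the rule gave 8201 members, 58.3% of the joined regions, with gaps of 77.9 and 41.5 kb, 11.8% within 10 kb of Foxk1 and 17.7% within 10 kb of other Sin3A, beside 28.2% as reported, a ratio of 1.59. Joining removes every gap up to 1 kb. Leaving out chromosome X, or chromosome 8 from 80 to 100 Mb, moved none of the 7. No paired analysis was possible because each group has 1 sample and no result comes from a test. The lists carry no score or depth, so weak and strong regions cannot be told apart.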

Other observations

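Chromosome 15, which the rule leaves out, held 1197 narrow Sin3A regions without Foxk1, 75.9% of its 1577 Sin3A regions (73.7 to 78.0%). They stood at 11.6 per Mb, with other Sin3A regions at 3.67 and Foxk1 regions at 8.85 per Mb. Their median width was 535 bases. Over whole chromosomes, no autosome used above had as many members per Mb (2.49 to 6.62) or as high a share (54.9 to 68.4%). On chromosome M, 1 of 11 distinct Sin3A regions was narrow and without Foxk1.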
